A study of Mus musculus with 20 samples.

Results

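Mature neutrophils were selected from single-cell RNA-sequencing (scRNA-seq) of spleens and sub-mandibular lymph nodes of mice with B-cell transgenes. Droplet barcodes were kept when they held 500 or more unique molecular identifiers (UMIs, each standing for 1 captured RNA molecule) from 200 or more genes, with no more than 10% of them mitochondrial. A kept barcode counted as a mature neutrophil, or member, with at least 20 UMIs of S100a8 plus S100a9, fewer than 10 of Camp plus Ngp plus Ltf, at least 1 of Csf3r, none of Csf1r or of Cd3d, Cd3e and Cd3g, and at most 1 of Cd79a plus Cd79b. These counts chose the cells, so no test result is given below for the 12 genes, although they were not taken out of the gene fits. The rule found 577 members among 102719 kept barcodes of 20 libraries from 13 mice. Precursors, used for comparison, were the 1240 barcodes that met the same limits with 10 or more UMIs of Camp, Ngp and Ltf. Near the limits, 2 members had 20 to 24 UMIs of S100a8 plus S100a9 and 9 barcodes that met the other conditions had 15 to 19, while 23 members had 8 or 9 UMIs of the granule genes and 17 barcodes just outside had 10 or 11.

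Spleens came from 5 mice with Eµ-PRMT5 alone, 4 with Eµ-TCL1 alone and 4 double transgenics (Eµ-PRMT5/TCL1), and lymph nodes from 3 of the Eµ-TCL1 mice and the 4 double transgenics. Eµ-PRMT5 mice carry a human PRMT5 cDNA (an arginine methyltransferase) and Eµ-TCL1 mice a human TCL1 cDNA (an oncogene). The Eµ enhancer of the immunoglobulin heavy chain locus directs both to B cells and not to neutrophils, and the double transgenics came from crossing the lines. The label gives the strain as C57BL/6N for all mice, tissue was collected at early removal criteria (ERC) without selecting a cell type, the labels give no age, and no wild-type library entered the comparisons. Each library is 1 tissue of 1 mouse, and 7 mice gave both tissues. Libraries held between 9348094 and 72440894 UMIs, and no barcode was a member in more than 1 library.

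Neutrophils are short-lived phagocytes that leave the bone marrow after dividing precursors have filled their granules in sequence. Primary granules hold proteases such as elastase, secondary granules hold lactoferrin, cathelicidin and lipocalin, and tertiary granules hold gelatinase. The receptors for granulocyte colony-stimulating factor (Csf3r) and for CXC chemokines (Cxcr2) mark cells that respond to signals for release and recruitment, and S100a8 and S100a9 form calprotectin, which makes up much of their cytosolic protein. Mature cells stop making most granule proteins and carry messages for cytokines, adhesion molecules and pattern receptors. Type I and type II interferons switch on a broad antiviral gene set in them.

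The label was checked against Cxcr2, the marker that the rule did not use. It was seen in 293 of 577 members (50.8%) and in 36 of 37181 B cells (0.0968%; barcodes with 3 or more UMIs of Cd79a plus Cd79b, none of the Cd3 genes and fewer than 20 of S100a8 plus S100a9), whose median depth per library lay between 3946 and 16073 UMIs against 1341 to 7466 UMIs for members. With each cell thinned to 500 UMIs it was seen in 133 members (23.1%), 115 of 1240 precursors (9.27%) and 3 B cells (0.00807%). Retnlg, a secreted protein abundant in mature murine neutrophils, was seen in 487 members (84.4%) and in 0.137% of B cells, which checks the label against B cells only and not against precursors. Of the 577 members, 507 had at least 1 UMI of Cxcr2, Retnlg or Mmp9 and fewer than 5 UMIs of the primary granule genes Mpo, Elane, Prtn3, Ctsg and Ms4a3, and are called marker-positive. This split was made after the values had been seen, so its cells are described by their values and enter tests only as alternatives.

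The other 70 members (12.1%) had no UMI of Cxcr2, Retnlg or Mmp9 and carried 35.9% of all members' UMIs. Their median was 6732 UMIs against 1791 in marker-positive members, and 35 members had 5 or more primary granule UMIs. They were unevenly spread over libraries. Eµ-PRMT5 spleen 4 went against the label: 32 of its 35 members had none of the 3 markers, 22 had 5 or more primary granule UMIs, and 29 had 5 or more UMIs of the class II antigen presentation genes Cd74, H2-Aa and H2-Ab1. Its members had a median of 7466 UMIs, while the other Eµ-PRMT5 spleens had medians between 1341 and 2364. In that library 1183 barcodes reached 20 UMIs of S100a8 plus S100a9, and 581 of these had no Csf3r UMI. Its members are called by the rule and not by the cell name where they are described alone, and the values that rest most on it are also given without it.

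**Figure D1:**
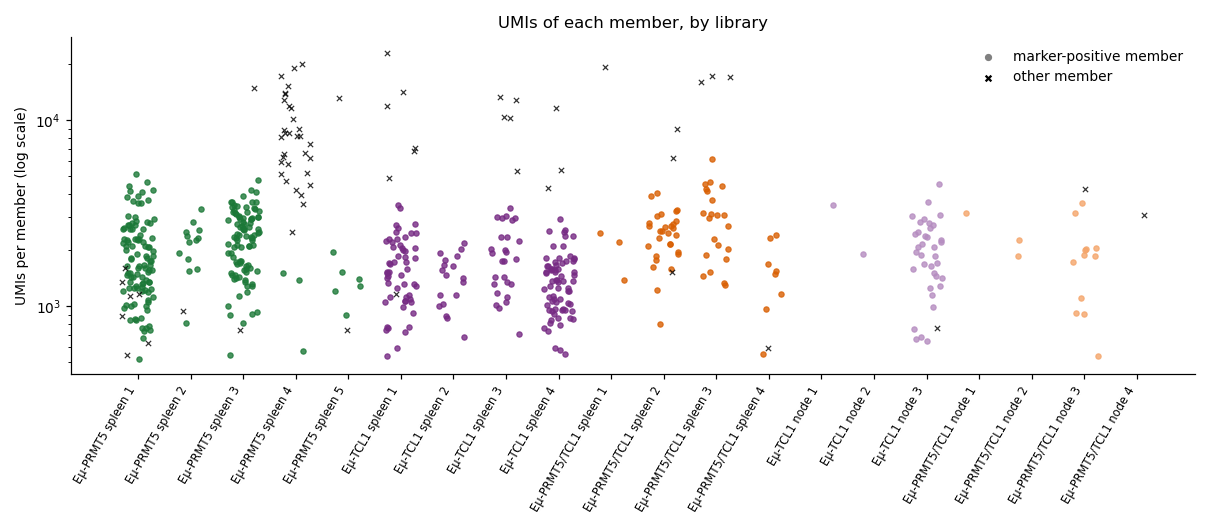
UMIs of each of the 577 members (log scale) by library, where filled points are marker-positive members in the colour of their group and crosses are the other members. In Eµ-PRMT5 spleen 4 the crosses make up 32 of 35 members, and in the other libraries crosses lie both above and below the filled points.

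Marker-positive members differed from precursors in cytokine, adhesion and granule genes, given here as description since the rule separates the populations. In 10 libraries with at least 10 cells of both, the receptor Cxcr2, 1 of the 3 genes that define marker-positive members and so partly fixed by that choice, had a median of 617 CPM (a gene's UMIs scaled to the same total in every library; range 230 to 838) in members and 177 (110 to 286) in precursors. Il1b, the precursor of interleukin 1 beta, had a median of 3668 CPM in members and 196 in precursors, and was higher in members of 10 of 10 libraries. The same held for the lectin Clec4d (1326 against 99.9 CPM), the histamine-forming enzyme Hdc (1379 against 473), the selectin ligand Selplg (1197 against 256) and the chemokine Ccl6 (2067 against 147). The survival and death genes Mcl1, Fas and Bcl2l11 were also higher in members of 10 of 10 libraries. Mcl1 had 516 against 106 CPM, the death receptor Fas 310 against 53.3, and the proapoptotic Bcl2l11 201 against 20.03. Other genes of the survival list are not compared here, and Bcl2a1d of that list had 0 or 1 UMI in marker-positive members of every library.

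Granule genes outside the rule ran the other way. Lcn2, lipocalin of the secondary granules, had a median of 3202 CPM in members and 17629 in precursors, and the surface protein Cd177 had 166 against 1281. Chil3, a chitinase-like protein, had 36.8 CPM against 6103, and Serpinb1a, an inhibitor of granule proteases, had 0 against 570. Cybb, the membrane subunit of the NADPH oxidase, was at 31.6 against 826 CPM, while its partners Cyba (1785 against 2320) and Ncf1 (954 against 996) overlapped. The proliferation genes Mki67 and Top2a had medians of 0 CPM in members and 74.6 and 106 in precursors. Mmp9, which also defines marker-positive members, lay on both sides, higher in members of 5 libraries and lower in 5, and Ly6g was lower in members of 8 of 10.

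**Figure D2:**
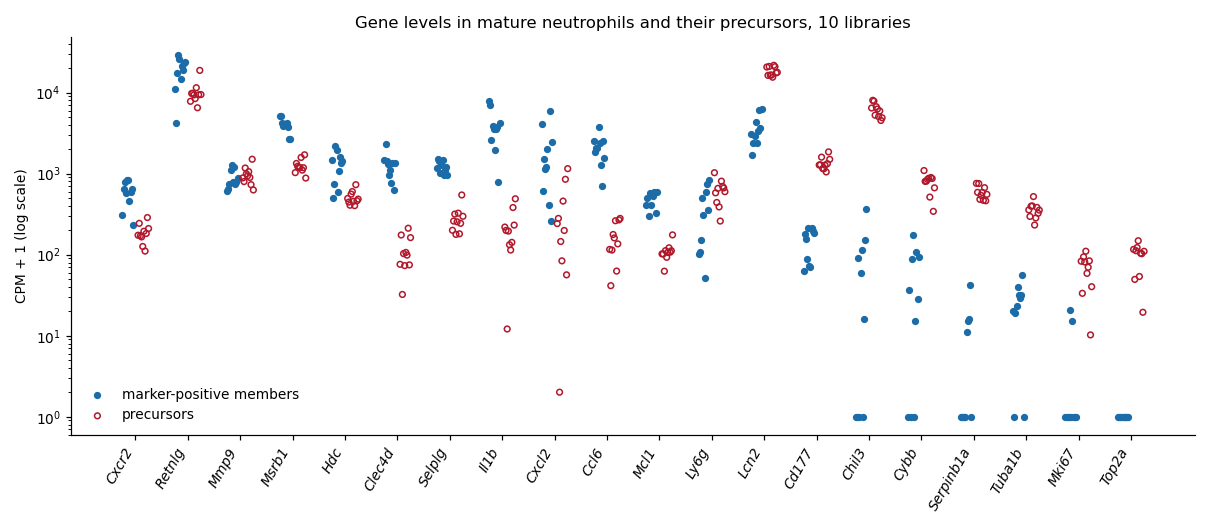
CPM plus 1 (log scale) of 20 genes in marker-positive members (filled) and precursors (open), 1 point per library, in the 10 libraries with at least 10 cells of both. From Cxcr2 to Mcl1 the members' medians are higher apart from Mmp9, whose points overlap, and from Ly6g to Top2a they are lower.

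Members were a small part of every library. In Eµ-PRMT5 spleens 1 to 5 they numbered 112, 14, 96, 35 and 8, which was 2.26%, 1.28%, 1.74%, 0.729% and 0.128% of kept barcodes. In Eµ-TCL1 spleens 1 to 4 they numbered 62, 18, 32 and 74, or 0.924%, 0.25%, 0.609% and 1.24%. In Eµ-PRMT5/TCL1 spleens 1 to 4 they numbered 4, 32, 25 and 9, or 0.0641%, 0.803%, 0.504% and 0.157%. All groups overlapped, and Eµ-PRMT5 spleens spread the most.

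The means were 1.23% ± 0.83 (SD, n = 5) with Eµ-PRMT5, 0.756% ± 0.42 (n = 4) with Eµ-TCL1 and 0.382% ± 0.34 (n = 4) in double transgenics. Eµ-PRMT5 spleens exceeded Eµ-TCL1 spleens by 0.472 percentage points (exact two-sided permutation p 0.349, adjusted p 0.495 over 12 share tests). Double transgenic spleens differed from Eµ-TCL1 spleens by -0.374 points (exact p 0.229, adjusted p 0.392) and from Eµ-PRMT5 spleens by -0.846 points (exact p 0.127, adjusted p 0.254). None of these differences passed an adjusted p of 0.05. Without Eµ-PRMT5 spleen 4 Eµ-PRMT5 minus Eµ-TCL1 was 0.596 points (adjusted p 0.419), and double transgenic minus Eµ-PRMT5 was -0.971 points (adjusted p 0.25). Kept barcodes with more than 1 UMI of Cd79a plus Cd79b, a wider set than the B cells above, enter the denominator. Without them the shares were 2.20% ± 1.53, 1.98% ± 1.25 and 0.835% ± 0.22, in the same order, and double transgenics differed from Eµ-TCL1 mice by -1.15 points (exact p 0.0286, the smallest that 4 against 4 allows; adjusted p 0.0857).

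**Figure D3:**
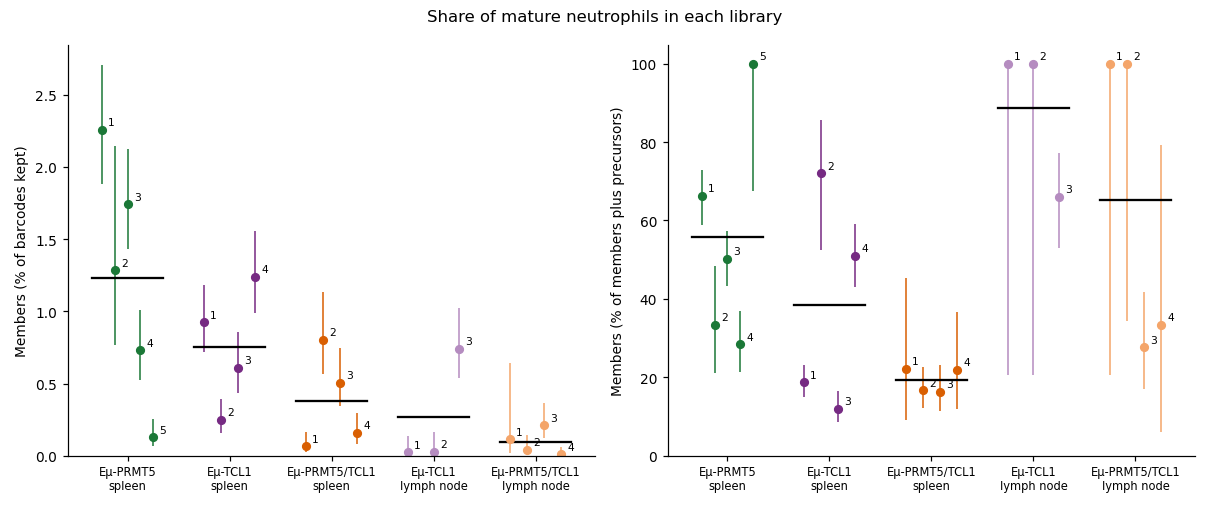
Members as a percentage of kept barcodes (left) and of members plus precursors (right), 1 numbered point per library with its 95% Wilson interval, and a line at the group mean. Eµ-PRMT5 spleens run from 0.128% to 2.26% on the left, and Eµ-PRMT5/TCL1 spleens lie between 16.3% and 22.2% on the right.

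Members were 66.3%, 33.3%, 50.3%, 28.5% and 100% of the lineage (members plus precursors) in Eµ-PRMT5 spleens 1 to 5, where spleen 5 rests on 8 cells. In Eµ-TCL1 spleens 1 to 4 they were 18.7%, 72.0%, 11.98% and 51.0%, spleen 2 with 25 lineage cells. In Eµ-PRMT5/TCL1 spleens 1 to 4 they were 22.2%, 16.7%, 16.3% and 21.95%. The 5 Eµ-PRMT5 libraries lay above the 4 double transgenic libraries, and Eµ-TCL1 libraries lay on both sides of them. The percentages themselves depend on depth and limits. With barcodes thinned to 500 UMIs, the limits were 10 UMIs of S100a8 plus S100a9 and 5 of the granule genes. Double transgenic spleens 1 to 4 then held 1, 17, 15 and 8 members against 2, 20, 18 and 7 precursors.

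Double transgenic spleens (19.3% ± 3.23) differed from Eµ-PRMT5 spleens (55.7% ± 28.9) by -36.4 points (exact p 0.0159, the smallest that 5 against 4 allows), with an adjusted p of 0.0635 that missed 0.05. Without Eµ-PRMT5 spleen 4 the difference was -43.2 points (adjusted p 0.114), and without spleen 5, whose 8 lineage cells were all members, it was -25.3 points. Among marker-positive members, Eµ-PRMT5 spleen 4 lay below the double transgenics (14.7% to 20%) at 3.30% of the lineage, and the difference was -33.0 points (exact p 0.111). Eµ-PRMT5 spleens exceeded Eµ-TCL1 spleens (38.4% ± 28.1) by less than the spread between mice (17.2 points, exact p 0.413, adjusted p 0.495; 24.04 points without Eµ-PRMT5 spleen 4), and the double transgenics differed from Eµ-TCL1 spleens by -19.1 points (exact p 0.371, adjusted p 0.495). Intervals on single libraries cover counting error only.

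Lymph nodes held few members. Eµ-TCL1 nodes 1 to 3 had 1, 1 and 37 members (0.0238%, 0.0290% and 0.742%), and Eµ-PRMT5/TCL1 nodes 1 to 4 had 1, 2, 13 and 1 (0.114%, 0.0399%, 0.212% and 0.0106%). The member of Eµ-PRMT5/TCL1 node 4 was not marker-positive. The node groups differed by -0.171 points (exact p 0.686, adjusted p 0.686, where 0.0571 is the smallest p possible), and without Eµ-TCL1 node 3 the sign turned, to 0.0675 points. Within the 7 mice measured in both tissues the node share was lower in 7 of 7, by a mean difference of -0.396 points (exact sign-flip permutation p 0.0156, the smallest possible, and adjusted p 0.0635). The within-mouse differences ran from -0.900 to -0.0242 points. The 4 Eµ-PRMT5/TCL1 mice alone gave -0.288 points (exact p 0.12, the smallest possible; adjusted p 0.254), and the 3 Eµ-TCL1 mice gave -0.221, -0.900 and -0.499.

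Members made up more of the lineage in nodes than in spleens in 7 of 7 mice, by a mean of 44.0 points (exact p 0.0156, the smallest possible, and adjusted p 0.0635). Only 2 nodes allow a precise value: members were 66.1% of 56 lineage cells in Eµ-TCL1 node 3 and 27.7% of 47 in Eµ-PRMT5/TCL1 node 3. The other 5 nodes held 1 to 3 lineage cells each. The node groups differed by -23.4 points (exact p 0.571, adjusted p 0.623), and the 4 Eµ-PRMT5/TCL1 mice gave 46.0 points (exact p 0.12, adjusted p 0.254). Among marker-positive members the mean difference over 7 mice was 40.7 points (exact p 0.0469, adjusted p 0.281). It was positive in 6 of 7 mice only, since node 4 of the double transgenics had 0% and the spleen of that mouse 15.3%.

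Genes were compared between genotypes on UMIs summed over the members of each library. Spleens with at least 20 members entered: Eµ-PRMT5 1, 3 and 4, Eµ-TCL1 1, 3 and 4, and double transgenic 2 and 3. In this fit 0 of 2473 genes (0% of those tested) passed an edgeR quasi-likelihood adjusted p of 0.05 in any of the 3 contrasts. Unadjusted p was below 0.05 for 30 genes with Eµ-PRMT5 set against Eµ-TCL1, for 22 with double transgenics set against Eµ-TCL1, and for 41 with them set against Eµ-PRMT5. DESeq2 also called 0 in each (28, 18 and 39 at unadjusted p below 0.05). With no filter on low counts edgeR called 17, 0 and 7 of 11550 genes (0.147%, 0% and 0.0606%). The fit included Eµ-PRMT5 spleen 4, and leaving it out again gave 0 calls in each contrast (edgeR). In simulated counts for 2473 genes with Eµ-PRMT5 set against Eµ-TCL1, this test recovered 0 of 200 genes changed 2-fold, 0 of 200 changed 4-fold and 155 of 200 changed 8-fold (with 11 false calls), so that changes of 4-fold or less were not detectable in this fit, whose spread includes Eµ-PRMT5 spleen 4. With spleens of at least 10 members and without Eµ-PRMT5 spleen 4, edgeR called 0 of 2179 in each, at 512, 66 and 420 genes with unadjusted p below 0.05, while DESeq2 called 117 of 2175 (5.38%), 0 of 2175 and 10 of 783 (1.28%) of the genes to which it gave an adjusted p. In that set edgeR called up to 183 genes with Eµ-PRMT5 set against Eµ-TCL1 when 1 more library was left out. All log2 differences that follow are edgeR estimates, and none of the genes named from the fit with at least 20 members passed.

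With Eµ-PRMT5 set against Eµ-TCL1, the genes with the smallest p were Gadd45g, Cebpe, Il1r2, Rsad2, Tob1, Ptp4a1, Ap1m1, Nkg7, Arid5a and Hipk1, all at an edgeR adjusted p of 0.999. Gadd45g, a stress-induced growth regulator, had a log2 difference of 2.30 ± 0.54 (SE), with 227 ± 111 (SD, n = 3) against 50.2 ± 7.54 CPM (n = 3). Il1r2, a decoy receptor for interleukin 1, had 368 ± 87.3 against 147 ± 35.9 CPM (log2 difference 1.46 ± 0.44). Cebpe, a transcription factor of granule formation, had 21.4 ± 2.88 against 150 ± 115 CPM (-2.65 ± 0.68). The primary granule list lay lower with it (6 of 7 tested genes below 0, median log2 difference -2.44, 0 past the test). Without Eµ-PRMT5 spleen 4, 7 of 7 were below 0. That spleen held 5955 CPM of the list against 37.3 and 105 CPM in the other 2 Eµ-PRMT5 libraries fitted. Genes so low in 1 group pass the filter on low counts through the others, so these counts are a description. The share of all genes below 0 was not counted. Members with 5 or more primary granule UMIs were 4 of 62, 4 of 32 and 1 of 74 in Eµ-TCL1 spleens 1, 3 and 4. The part of this list in the result was not tested. The 6 libraries fitted did not overlap between the groups for Gadd45g, Il1r2 and Cebpe, and the differences did not pass. The genes were taken for their small p, and the share of all genes without overlap was not counted. Smaller libraries overlapped: Il1r2 was at 743 CPM in Eµ-TCL1 spleen 2, Gadd45g at 34.5 CPM (1 UMI) in Eµ-PRMT5 spleen 2, and Cebpe at 138 CPM (4 UMIs) in Eµ-PRMT5 spleen 2. Cebpe had 28 UMIs in members of Eµ-TCL1 spleen 3 but 1 in its marker-positive members, where the groups overlapped. Without Eµ-PRMT5 spleen 4 the log2 differences were 2.30 ± 0.50 for Gadd45g, 1.15 ± 0.37 for Il1r2 and -2.88 ± 0.76 for Cebpe (edgeR adjusted p 0.108 to 0.114).

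With double transgenics set against Eµ-TCL1 the smallest p belonged to Ppp2ca, Lars2, Spata13, Etv6, Rab24, Nr4a1, Fam104a, Dtnbp1, Poldip3 and Gm42418, again at an edgeR adjusted p of 0.999. Nr4a1, an orphan nuclear receptor induced within minutes of stimulation, had 231 ± 156 (n = 2) against 65.3 ± 32.6 CPM (n = 3). Gm42418, a locus that shares sequence with ribosomal RNA and is therefore uncertain, had 17773 ± 5946 against 8549 ± 670 CPM. With double transgenics set against Eµ-PRMT5 they were Gadd45g, Isg20, Rsad2, Samd9l, Jun, Poldip3, Zbtb7b, Ppp2ca, 1700017B05Rik and Oas3. Isg20, Rsad2, Samd9l and Oas3 are interferon-induced antiviral genes. Rsad2 had 191 ± 45.8 against 19.6 ± 16.6 CPM (log2 difference 3.23 ± 1.03, edgeR adjusted p 0.9998; 3.30 ± 1.08 without Eµ-PRMT5 spleen 4), and Oas3 118 ± 9.24 against 32.7 ± 4.07 CPM (1.82 ± 0.65, and 1.90 ± 0.68 without that spleen).

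The interferon response list, 1 of 23 gene lists, spread widely over libraries in marker-positive members. Its 31 genes together took 3742, 3638 and 3359 CPM in Eµ-PRMT5 spleens 1 to 3. In the 4 Eµ-TCL1 spleens they took 20784, 7426, 12040 and 2673 CPM, and in Eµ-PRMT5/TCL1 spleens 2 and 3 they took 16741 and 16676 CPM. Eµ-TCL1 spleen 4 lay below the Eµ-PRMT5 spleens, so that the Eµ-TCL1 group spanned both others.

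Libraries with few marker-positive members did not all follow their group. Eµ-PRMT5 spleen 4 had 36748 CPM in 3 cells (127 UMIs; 95% Poisson interval 30635 to 43723), and Eµ-PRMT5 spleen 5 had 5577 CPM in 6 cells (4083 to 7439). Eµ-PRMT5/TCL1 spleen 1 had 8416 CPM in 3 cells (6266 to 11065) and spleen 4 had 26536 CPM in 8 cells (23712 to 29603). With every library counted, the groups overlapped, and the highest level of all was that of the 3 cells in Eµ-PRMT5 spleen 4.

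Cell by cell, the interferon list took a median of 0.274%, 0.343% and 0.299% of a cell's UMIs in Eµ-PRMT5 spleens 1 to 3, and reached 1% in 8 of 105, 0 of 13 and 4 of 94 cells. In Eµ-TCL1 spleens 1 to 4 the medians were 1.94%, 0.646%, 0.981% and 0.233%, and 48 of 55, 5 of 18, 13 of 27 and 1 of 71 cells reached 1%. In Eµ-PRMT5/TCL1 spleens 2 and 3 the medians were 1.72% and 1.30%, with 21 of 29 and 17 of 22 cells at 1% or more. Most cells of Eµ-TCL1 spleen 1 and of the 2 double transgenic spleens thus reached 1%.

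**Figure D4:**
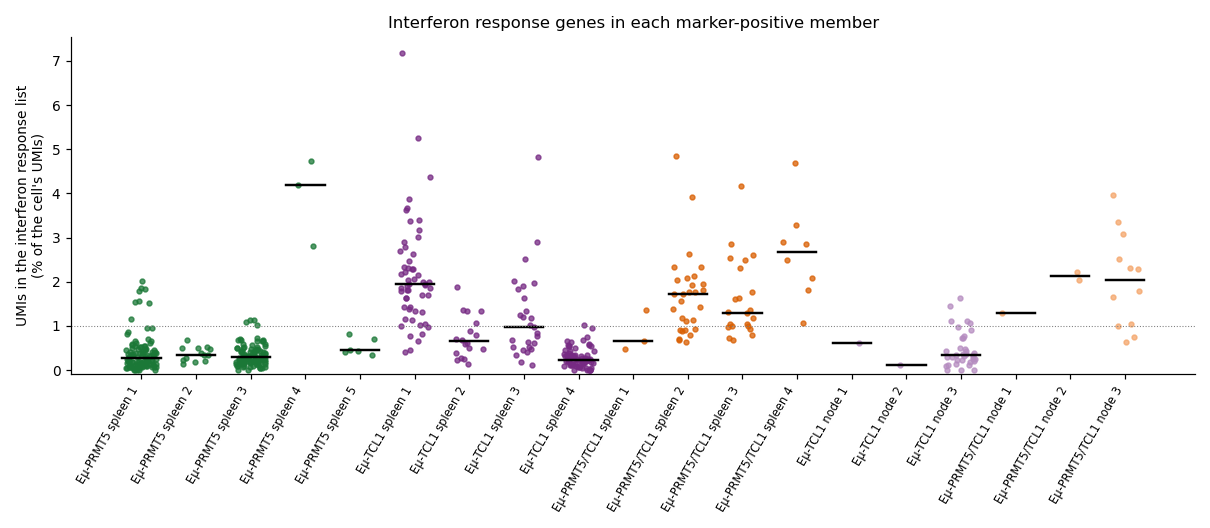
Percentage of a cell's UMIs that fell in the 31 genes of the interferon response list, 1 point per marker-positive member with a line at each library's median; the dotted line marks 1%. Of the 11 libraries with at least 10 such members, Eµ-TCL1 spleen 1, Eµ-PRMT5/TCL1 spleens 2 and 3 and Eµ-PRMT5/TCL1 node 3 have medians above 1%, and Eµ-PRMT5 spleens 1 to 3, Eµ-TCL1 spleen 4 and Eµ-TCL1 node 3 have medians between 0.233% and 0.348%.

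In droplets of 10 to 100 UMIs, taken to hold no cell, the list took between 674 and 2282 CPM over the 20 libraries, and in B cells between 523 and 1638 CPM. Precursors of Eµ-PRMT5 spleens 1 to 3 had 2415, 2402 and 2003 CPM, those of Eµ-TCL1 spleens 1, 3 and 4 had 7052, 3259 and 1756, and those of Eµ-PRMT5/TCL1 spleens 2 and 3 had 5158 and 5848. Precursors were below marker-positive members in each of these libraries. Monocytes (at least 1 UMI of Csf1r, under 10 of Camp, Ngp and Ltf, none of the Cd3 genes and at most 1 of Cd79a plus Cd79b) had 4500, 4132 and 2679 CPM in Eµ-PRMT5 spleens 1 to 3, which was above members in the first 2, and 8152 and 5732 CPM in Eµ-PRMT5 spleens 4 and 5. They had 7005, 6047, 4369 and 2562 CPM in Eµ-TCL1 spleens 1 to 4, and 7030, 5303, 6177 and 6357 CPM in double transgenic spleens 1 to 4, so that the genotypes overlapped. Of all spleens measured, Eµ-TCL1 spleen 4 was the lowest for precursors and for monocytes as it was for marker-positive members.

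Zbp1, a nucleic acid sensor, was at 4.8, 0 and 9.0 CPM in marker-positive members of Eµ-PRMT5 spleens 1 to 3. It was at 869, 195, 195 and 20.3 CPM in Eµ-TCL1 spleens 1 to 4, and at 660 and 654 CPM in Eµ-PRMT5/TCL1 spleens 2 and 3. The 3 Eµ-PRMT5 levels were below the other 6, but that of Eµ-TCL1 spleen 4 came from 2 UMIs, as many as Eµ-PRMT5 spleen 3 held. The share of all genes with this order was not counted. The 3 marker-positive members of Eµ-PRMT5 spleen 4 held 3 UMIs of Zbp1 and 16 of Gbp2, and the 6 of spleen 5 held 0 of both. Gbp2, a guanylate-binding protein, was at 19.3, 0 and 72.1 CPM, then at 1804, 39.1, 1013 and 20.3 CPM, and at 1671 and 1885 CPM in that order. Ifitm3, which restricts virus entry, was at 1027, 571 and 888 CPM, then at 4850, 1524, 2299 and 813 CPM, and at 4677 and 3709 CPM in the same order. Both were low in Eµ-TCL1 spleen 4, where they overlapped the Eµ-PRMT5 libraries.

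In the fit over all members, 21 of the 31 genes passed the filter on low counts. With double transgenics set against Eµ-PRMT5, 20 of the 21 had a positive log2 difference (median 1.82, against -0.16 over all genes tested) and 0 passed the test. With Eµ-PRMT5 set against Eµ-TCL1, 19 of 21 were negative (median -1.18, against 0.10 over all genes) and 0 passed. With double transgenics set against Eµ-TCL1, 18 of 21 were positive (median 0.56, against -0.03) and 0 passed. Without Eµ-PRMT5 spleen 4, 20 of 20 were positive in the first of these contrasts (median 2.06) and 20 of 20 negative in the second (median -1.79), and 0 passed. A gene that is high in only 1 group passes the filter through that group, so these counts are a description, and the 3 contrasts share libraries.

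An alternative fit over marker-positive members, in the 9 spleens with at least 10 of them, called 11 of 1355 genes (0.812%) with double transgenics set against Eµ-PRMT5, all 11 higher in the double transgenics. They were Zbp1, Ifi47, Gbp2, H2-Q7, H2-Q4, Plac8, Ly6c2, Spata13, Ebi3, Pglyrp1 and Psme2, of which the first 3 are in the interferon list. H2-Q7 and H2-Q4 are near copies of other class I genes, and reads may be shared between them. Zbp1 had a log2 difference of 6.63 ± 1.17 (edgeR adjusted p 0.0393) and Gbp2 of 5.61 ± 1.22 (adjusted p 0.0478), both from a low base. Marker-positive members of Eµ-PRMT5 spleens 1 to 3 held 1, 0 and 2 UMIs of Zbp1 and 4, 0 and 16 of Gbp2. They held 0, 0 and 3 UMIs of Ifi47 and 0, 0 and 2 of H2-Q7. Such genes passed the filter on low counts through the other groups, so these calls are a description. The same edgeR fit called 0 genes with Eµ-PRMT5 set against Eµ-TCL1 (163 with unadjusted p below 0.05) and 0 with double transgenics set against Eµ-TCL1 (92). Without Eµ-TCL1 spleen 4 these counts were 55 and 0. The 11 calls became 30, 16 and 47 on leaving out Eµ-TCL1 spleen 1, 2 or 4. They became 0 when spleen 3 of that group, any of Eµ-PRMT5 spleens 1 to 3, or either double transgenic spleen was left out. With at least 20 marker-positive members per library, edgeR called 0 of 1475 genes (0%) in each contrast (114, 97 and 171 at unadjusted p below 0.05, with Eµ-PRMT5 against Eµ-TCL1 first and double transgenics against Eµ-PRMT5 last), while DESeq2 called 5 of 846 (0.591%) and 20 of 1475 (1.36%) genes to which it gave an adjusted p, with Eµ-TCL1 and the double transgenics set against Eµ-PRMT5.

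The 20 genes of the cytokine and chemokine list took 16843, 15157 and 8377 CPM in Eµ-PRMT5 spleens 1 to 3, and 9051, 9185, 9897 and 8049 CPM in Eµ-TCL1 spleens 1 to 4. In Eµ-PRMT5/TCL1 spleens 2 and 3 they took 6503 and 13423 CPM. Il1b was at 7816, 6954 and 2624 CPM, then at 3816, 2970, 3565 and 1941 CPM, and at 3553 and 3770 CPM in the same order, so that the groups overlapped. Cxcl2, a chemokine that draws neutrophils through Cxcr2, ran from 407 to 5989 CPM, and both ends were Eµ-PRMT5/TCL1 spleens. Of the 20 genes, 13 passed the filter and 0 passed the test in each contrast. Their median log2 differences were 0.68, 0.54 and -0.20 with Eµ-PRMT5 set against Eµ-TCL1, and with double transgenics set against Eµ-TCL1 and then Eµ-PRMT5, beside 0.10, -0.03 and -0.16 over all genes. Without Eµ-PRMT5 spleen 4 they were 1.13, 0.48 and -0.50.

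Immediate early genes, which follow stimulation or handling within minutes, took 10353, 13944 and 5861 CPM in Eµ-PRMT5 spleens 1 to 3, 6521, 5472, 4910 and 6026 CPM in Eµ-TCL1 spleens 1 to 4, and 5140 and 7418 CPM in Eµ-PRMT5/TCL1 spleens 2 and 3. In the fit over all members 13 of 19 passed the filter, 12 of the 13 were higher in Eµ-PRMT5 than Eµ-TCL1 libraries (median log2 difference 0.84, or 0.92 without Eµ-PRMT5 spleen 4), and 0 passed. The share of all genes higher in Eµ-PRMT5 libraries was not counted, so the 12 of 13 are a description. Jun was at 632, 2603 and 555 CPM, then at 264, 547, 175 and 478 CPM, and at 70.2 and 289 CPM in that order. The Eµ-PRMT5 libraries were the highest 3 of the 9 for Jun, and how many of all genes share this order was not counted. The genes of NF-kB feedback (15 of 17 past the filter, 0 past the test) had a median log2 difference of 0.79 with double transgenics set against Eµ-TCL1 and took 5463 and 7464 CPM against 4355, 2619, 4656 and 4644. Their levels in Eµ-PRMT5 spleens are not given here, so these values do not set the double transgenics apart.

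Chemotaxis and adhesion genes took between 7514 and 8560 CPM over the 9 spleens with at least 10 marker-positive members, pattern and Fc receptors between 18495 and 23178 CPM, and NADPH oxidase genes between 5777 and 8222 CPM. In the fit over all members 0 genes of these lists passed, with 17 of 18, 19 of 21 and 7 of 7 past the filter. Cxcr2 was at 309, 642 and 798 CPM in Eµ-PRMT5 spleens 1 to 3, at 583, 508, 838 and 833 CPM in Eµ-TCL1 spleens 1 to 4, and at 463 and 593 CPM in Eµ-PRMT5/TCL1 spleens 2 and 3. The groups overlapped. Retnlg was at 11004, 4173 and 17452 CPM, then at 28856, 11999, 25834 and 14593 CPM, and at 21474 and 19047 CPM.

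Ly6g, a surface antigen of mouse neutrophils, was at 101, 107 and 149 CPM in Eµ-PRMT5 spleens 1 to 3, at 506, 156, 312 and 50.8 CPM in Eµ-TCL1 spleens 1 to 4, and at 590 and 745 CPM in Eµ-PRMT5/TCL1 spleens 2 and 3. The double transgenics had the highest levels and Eµ-TCL1 spleen 4 the lowest. Secondary and tertiary granule genes outside the rule took 23758, 14800 and 30311 CPM, then 42932, 24468, 50052 and 28180 CPM, and 37709 and 37319 CPM. These sums and the interferon list were both high in Eµ-TCL1 spleens 1 and 3 and in the double transgenics. Retnlg is on this granule list, helps define marker-positive members, and made up most of the sum in each of those libraries. The sums are therefore not read as a measure of maturity, and values without Retnlg are not given here. The part of maturity in the interferon values was not tested.

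Genes of the response to oxidants and iron were on no list and are given because of their values. Hmox1, haem oxygenase, was at 1630, 1961 and 1957 CPM in marker-positive members of Eµ-PRMT5 spleens 1 to 3, at 286, 78.2, 273 and 1128 CPM in Eµ-TCL1 spleens 1 to 4, and at 688 and 1003 CPM in Eµ-PRMT5/TCL1 spleens 2 and 3. Gclm, of glutathione synthesis, was at 550, 1569 and 1023 CPM, then 110, 156, 136 and 386 CPM, then 393 and 350 CPM. Slc40a1, the iron exporter ferroportin, was at 487, 1284 and 1023 CPM, then 77.0, 78.2, 195 and 356 CPM, then 98.3 and 182 CPM. Of the 9 spleens with at least 10 marker-positive members, the 3 Eµ-PRMT5 libraries were above the other 6 for each of these genes. The genes were picked for their values, so this order is a description, and how many of all genes share it was not counted. The small Eµ-PRMT5 libraries did not follow: the 6 cells of spleen 5 held 2, 1 and 1 UMIs of Hmox1, Gclm and Slc40a1, and the 3 cells of spleen 4 held 0 of each. For these genes, the highest of the Eµ-TCL1 spleens was spleen 4, which was the lowest for the interferon list.

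Among genes described in neutrophils of tumour-bearing mice, Arg1 and Dcstamp had 0 UMIs in marker-positive members of the 10 libraries set against precursors. Arg2 had a median of 351 CPM in them and 94.0 in precursors, the signalling receptor Cd84 261 against 88.4, and Wfdc17, a small secreted protein, 2654 against 59.1. Of the list's 16 genes, 9 passed the filter and 0 the test in each genotype contrast, with medians of 0.41, 0.57 and -0.37 in the order given above, or 0.83, 0.52 and -0.72 without Eµ-PRMT5 spleen 4. Wfdc17 was at 5979, 1748 and 5811 CPM in Eµ-PRMT5 spleens 1 to 3, at 847, 5394, 1091 and 2571 CPM in the 4 Eµ-TCL1 spleens, and at 1334 and 2736 CPM in double transgenic spleens 2 and 3, so that the groups overlapped. Mouse Prmt5 had 0 UMIs in marker-positive members of the 11 libraries with at least 10 of them.

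Markers of other cells were low in marker-positive members. B and plasma cell markers took 36 to 627 CPM in the 9 spleens, T and NK cell markers 0 to 154, dendritic cell markers 0 to 11 and erythroid and platelet markers 0 to 78. Monocyte and macrophage markers took 429, 749 and 577 CPM in Eµ-PRMT5 spleens 1 to 3, 1364, 664, 877 and 478 CPM in the 4 Eµ-TCL1 spleens, and 1742 and 1049 CPM in double transgenic spleens 2 and 3. Like the interferon list, they were high in Eµ-TCL1 spleen 1 and the double transgenics, and their part in the interferon values was not tested. Ly6c2, 1 of their 15 genes, took 101, 71.3 and 176 CPM, then 1232, 195, 643 and 173 CPM, then 1643 and 790 CPM. Members that were not marker-positive held more of 2 other lists. Primary granule genes took 6027 CPM in those of Eµ-PRMT5 spleen 4 and 50824 CPM in those of Eµ-TCL1 spleen 3. Cell cycle genes took 7902 and 5929 CPM in the same order. In marker-positive members of the 9 spleens these 2 lists took at most 66 and 857 CPM. The limit on primary granule UMIs helps define marker-positive members, so that contrast was partly fixed by the split.

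Nodes and spleens were compared in the mice whose libraries both held at least 10 members, which were 1 Eµ-TCL1 mouse (spleen 4 with 74 members, node 3 with 37) and 1 Eµ-PRMT5/TCL1 mouse (spleen 3 with 25, node 3 with 13). With at least 20 members no fit could be made. Of 1437 genes, edgeR with mouse as a block called 54 (3.76%), 28 higher (1.95%) and 26 lower (1.81%) in the node. The count rested on the settings: it was 23 of 1006 (2.29%) in marker-positive members (16 higher, 1.59%, and 7 lower, 0.696%), 12 with DESeq2, 2 without the block and 0 with DESeq2 size factors in edgeR. Of the 54, 2 were left out of the naming. With 2 mice the test measures the spread left after 1 difference per mouse, and whether the tissues differ alike in both genotypes could not be tested.

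The genes that were higher in both nodes included secreted and surface proteins. Wfdc17 went from 2206 to 8296 CPM in the Eµ-TCL1 mouse and from 1653 to 7794 CPM in the Eµ-PRMT5/TCL1 mouse (log2 difference 2.11 ± 0.26, edgeR adjusted p 5.5e-06), and passed in 11 of 13 fits. Ifitm1 went from 2440 to 6922 and from 2204 to 6105 CPM (1.53 ± 0.26), and passed in 9 of 13. Lrg1, a secreted glycoprotein stored in granules, went from 150 to 1129 and from 250 to 1689 CPM (2.86 ± 0.46, adjusted p 1.9e-04; 10 of 13 fits). These genes moved by a like amount in both mice.

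Other genes were higher in both nodes as well, several of them by unequal amounts. Il1r2 went from 159 to 2285 CPM in the Eµ-TCL1 mouse and from 189 to 461 CPM in the Eµ-PRMT5/TCL1 mouse (2.78 ± 0.56). Ifi27l2a, an interferon-induced gene, went from 83.6 to 598 and from 1016 to 5107 CPM (2.54 ± 0.38; 10 of 13 fits). Stfa1, a cystatin with near-identical copies whose reads may be shared, went from 501 to 1863 and from 25.8 to 921 CPM (2.92 ± 0.54). Retnlg went from 12000 to 22671 and from 10788 to 19774 CPM (0.94 ± 0.17), the protease Mmp8 from 284 to 626 and from 164 to 1037 CPM (1.88 ± 0.50), and the activating receptor Trem1 from 167 to 707 and from 387 to 1075 CPM (1.80 ± 0.47). The immediate early genes Fos, Jund and Atf3 were also called (3 of 12 past the filter, against 1.95% of all genes). How often they passed varied with the fit: Il1r2 passed in 7 of 12, Stfa1 in 7 of 13, Jund in 6 of 12, Fos and Atf3 in 4 of 12, Retnlg in 4 of 13, and Mmp8 and Trem1 in 3 of 12. With the Eµ-TCL1 mouse first, members that were not marker-positive held 17.8% and 43.4% of members' UMIs in the spleens. In the nodes they held 1.04% and 16.5%, so the levels over all members rest partly on these cells. In marker-positive members Retnlg went from 14593 to 22909 and from 19047 to 23669.5 CPM. Trem1 went from 684 to 1287 CPM in those of the Eµ-PRMT5/TCL1 mouse. Each gene of this paragraph was still higher in both nodes in marker-positive members.

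Of the genes lower in both nodes, 5 were primary granule genes (5 of 5 past the filter, against 1.81% of all genes called lower). They were at 0 in both nodes and so passed the filter through the spleens alone, which makes this count a description. Elane, neutrophil elastase, went from 4095 and 4425 CPM to 0, where 3 UMIs would be 40.8 and 115 CPM, and the others were Prtn3, Mpo, Ctsg and Ms4a3. In marker-positive members, which were chosen to have few of them, Elane was at 0 in all 4 libraries. Members with 5 or more primary granule UMIs were 1 of 74 in the Eµ-TCL1 spleen, 3 of 25 in the Eµ-PRMT5/TCL1 spleen, and 0 of 37 and 0 of 13 in the nodes. Rps20, a ribosomal protein gene, went from 1429 to 286 and from 2480 to 768 CPM, but in marker-positive members it went from 457 to 275 and from 122 to 321.7 CPM, so that its direction turned in 1 mouse and in the fitted value (0.06). Rpsa, called lower over all members, went from 254 to 330 and from 228.02 to 643 CPM in marker-positive members, and Rps4x and Rps26 were likewise higher there in both nodes.

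Cxcl2 was lower in both nodes, from 1671 to 258 and from 3392 to 2035 CPM (log2 difference -1.59 ± 0.40, edgeR adjusted p 0.018), and in marker-positive members from 2032 to 261 and from 5989 to 2436 CPM. Sqstm1, an autophagy receptor, went from 1396 to 612 and from 1851 to 192 CPM (-1.88 ± 0.46). Each passed in 5 of 13 fits. Of the interferon list 14 of 31 genes passed the filter, and Ifi27l2a and Ifitm3 were called higher in the node (2 of 14, against 1.95% of all genes), with a median of 0.37 against -0.07 over all genes, and of -0.04 in marker-positive members. Summed over the list, marker-positive members of the Eµ-TCL1 mouse had 2673 CPM in the spleen and 5264 in the node, and those of the Eµ-PRMT5/TCL1 mouse 16676 and 18384 CPM. The difference between the mice was thus wider than that between the tissues of either mouse.

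**Figure D5:**
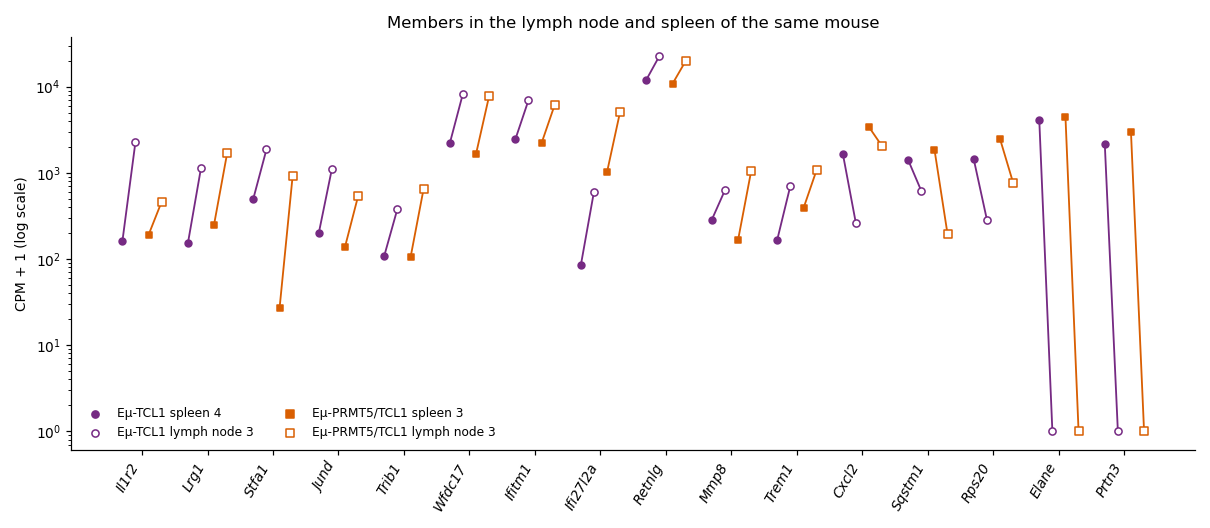
CPM plus 1 (log scale) of 16 genes in members of the spleen (filled) and lymph node (open) of 1 Eµ-TCL1 mouse (circles) and 1 Eµ-PRMT5/TCL1 mouse (squares), joined within each mouse. The first 11 genes, from Il1r2 to Trem1, are higher in both nodes, and Cxcl2 to Prtn3 are lower.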

How the data were processed

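Unselected live cells from spleen and sub-mandibular lymph node were profiled by droplet 3′ scRNA-seq, and the authors deposited UMI counts per gene and barcode for all barcodes of each library, with no normalization. The submitters' processing notes name Cell Ranger 2.0.1 and Seurat 2.2.1, and the matrix headers name another release of the former. No deposited cell annotation was used. All 20 libraries and 31053 genes were read, and 0 columns were left unassigned.

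Members and gene lists were chosen with earlier results of these data known. Barcodes passed the limits given above. Shares were compared over libraries by exact two-sided permutation tests, and within mice by exact sign flips, with Benjamini-Hochberg adjustment over 12 tests. Counts were summed per library, filtered with filterByExpr, scaled by TMM and tested with edgeR 4.0.16 (quasi-likelihood) in R 4.3.3 at an adjusted p of 0.05, with DESeq2 1.42.0 as an alternative. One fit held the 3 spleen groups. The fit of node against spleen had mouse as a block, since the labels tie both tissues to 1 mouse, and was planned for libraries of at least 20 members. It could be made only with at least 10. Node groups could not be compared gene by gene. Libraries of a group are different mice, so p-values measure the spread between these mice.

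Genes were named when they passed, reached 50 CPM in the higher group and did not overlap between groups (in nodes, moved alike in both mice), up to 15 in each direction. Where none passed, the 10 with the smallest p were named. The other genes are members of the lists or, like the genes of oxidants and iron, Ifitm1, Mmp8, Trem1, Retnlg, Ifitm3, Cxcl2 and Sqstm1 in the nodes, were chosen after their values were seen. Rule genes stayed in the gene fits and in their adjustment, but were left out of the naming and of the list tests. Scrublet (scanpy 1.11.5) marked 787 barcodes and 0 members, too few to have worked, so barcodes with the top scores at the expected rate were also left out as an alternative. The gene test was tested on simulated counts, where it recovered changes of 8-fold and none of 2-fold or 4-fold (Eµ-PRMT5 against Eµ-TCL1 spleens). Wilson intervals on shares and Poisson intervals on summed levels cover counting error only.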

Additional observations from a re-analysis of the deposited data

Results flagged for a closer look

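Values were flagged when 1 library stood far from the others of its group by Dixon's test, which chance does in about 1 in 20 groups. It was run on 50 groups and gave 12 flags, of which 9 belong to Eµ-PRMT5 spleen 4. Its members had a median of 7466 UMIs (1341 to 2364 in the other Eµ-PRMT5 spleens), and 91.4% of them were not marker-positive (2.08% to 25%). The levels that follow were compared over Eµ-PRMT5 spleens 1 to 4 only, since spleen 5 had under 10 members. In members of spleen 4 the interferon list took 7977 CPM (3369 to 3726 in the others), primary granule genes 5955 CPM (0 to 105), cell cycle genes 7817 CPM (380 to 990) and monocyte and macrophage markers 5788 CPM (429 to 741). Mmp9 was at 13.9 CPM (582 to 686), Gbp2 at 752 CPM (0 to 67.4) and Ifitm3 at 3282 CPM (587 to 1040.3). The 8 members of spleen 5 had 4371 CPM of the interferon list, 721 CPM of primary granule genes, 9734 CPM of cell cycle genes and 2478 CPM of monocyte and macrophage markers, with 11 UMIs of Mmp9, 0 of Gbp2 and 48 of Ifitm3 among 22191. Its cell cycle level was thus above that of spleen 4. The values of spleen 4 came from 35 members, of which 32 carried 98.8% of the UMIs and had none of Cxcr2, Retnlg and Mmp9.

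In Eµ-TCL1 spleen 4 Hmox1 was at 928 CPM in members, against 78.2 to 213 CPM in the other Eµ-TCL1 spleens. The last 2 flags rest on few cells. Of the 4 members of Eµ-PRMT5/TCL1 spleen 1, 25% were not marker-positive (9.38% to 12% in the others of its group), and in Eµ-PRMT5/TCL1 lymph node 4 the only member was not, which is 100% (0 to 7.69%).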

How the results depend on the processing

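Shares kept their direction under every alternative run, except that the node groups turned from -0.171 to 0.0675 points without Eµ-TCL1 node 3. None passed an adjusted p of 0.05 in any setting. That says little about stability, since no exact p of the main tests could go below 0.0156. Leaving out 1 library at a time, node groups ran from -0.291 to 0.0675 points. Member shares ran from 0.214 to 0.747 points for Eµ-PRMT5 minus Eµ-TCL1, from -1.12 to -0.589 for double transgenic minus Eµ-PRMT5, from -0.543 to -0.213 for double transgenic minus Eµ-TCL1, and from -0.376 to -0.120 for node minus spleen in double transgenics. Lineage shares ran from 6.16 to 28.4, from -43.2 to -25.3 and from -27.9 to -7.94 points for the same 3 spleen pairs, and from -35.0 to -10.9 points between node groups. Mice of different genotype share only a replicate number, and a replicate block, with 0.747 points (adjusted p 0.429) for Eµ-PRMT5 against Eµ-TCL1 shares, changed no call. The correlation of deviations for same-numbered spleens lay between -0.519 and 0.314. Without the block over mice, the share in nodes against spleens had an adjusted p of 0.245.

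Counts of genes moved more. For Eµ-PRMT5 against Eµ-TCL1 spleens (0 in the fit reported, edgeR) they were 17 with no filter on low counts, 3 with at least 50 members per library, 5 in marker-positive members with DESeq2, and 117 with at least 10 members, without Eµ-PRMT5 spleen 4 and with DESeq2. Leaving out 1 library gave 0 to 183: in that set with edgeR, 183 and 18 when Eµ-TCL1 spleen 2 or 4 was left out, 14 and 10 when double transgenic spleen 2 or 3 was, and in marker-positive members 2 when Eµ-PRMT5 spleen 1 and 55 when Eµ-TCL1 spleen 4 was. For Eµ-PRMT5/TCL1 against Eµ-PRMT5 they were 7 with no filter, 11 and 20 in marker-positive members (edgeR with at least 10, DESeq2) and 10 with the DESeq2 fit without Eµ-PRMT5 spleen 4. Leaving out 1 library gave 0 to 47: 18 and 1 when Eµ-TCL1 spleen 1 or 4 was left out, and in marker-positive members 30, 16 and 47 for Eµ-TCL1 spleens 1, 2 and 4. Eµ-PRMT5/TCL1 against Eµ-TCL1 gave 0 in 44 settings.

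For node against spleen (54) the count was 2 with no replicate block, 12 with DESeq2, 0 with DESeq2 size factors in edgeR, 3 without S100a8 and S100a9, 11 without genes of near-empty droplets, 6 with S100a8 plus S100a9 of at least 40, 33 without the top Scrublet scores, 23 in marker-positive members and 8 with cells thinned to 500 UMIs. The signs of genes outside the naming rule were not followed through the settings, but Rpsa, Rps4x, Rps26 and Chil3 had higher CPM in both nodes in marker-positive members. Among the genes followed, signs turned for Rps20 in nodes (0.0588 in marker-positive members) and Il1r2, Eµ-PRMT5 against Eµ-TCL1 spleens (-0.0813 in marker-positive members without Eµ-TCL1 spleen 4, with at least 10 cells per library). The causes were not tested. Leaving out 1 library of the node fit could not be run. The marker-positive, thinned, Scrublet-score and Eµ-PRMT5 spleen 4 settings were chosen after seeing the data. Few members per library, 1 or 2 in 5 of 7 nodes, limit every gene comparison.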
